A study of Homo sapiens with 12 samples.

Results

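The response of SW48 cells to sgWRN3, a guide RNA against WRN, was compared with that of SW48 cells carrying sgCh2-2, the control guide. The comparison takes 4 of the 12 RNA-seq libraries of the study, chosen by their labels: SW48 sgCh2-2 A and B, and SW48 sgWRN3 A and B. SW48 is a colorectal cancer cell line. All cells expressed Cas9, the nuclease that cuts DNA where a guide directs it, and were collected 72 h after the guide was delivered by transduction. The remaining libraries hold SW48 cells with sgWRN2, a different guide against WRN, and OVK18 cells, an ovarian cancer line, with each of the 3 guides. They enter below only as references. The labels give the letters A and B, called replicates here, and do not say that they are separate cultures. Where libraries are compared within letters, the p-values measure how far the effect of the guide varies between letters, estimated over both lines. Elsewhere they measure the spread between libraries of a group. Either spread may be technical. The cells were transduced populations, and the labels do not give the share of cells in which WRN was cut.

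WRN encodes a RecQ-family helicase and exonuclease that unwinds DNA structures arising at replication forks and during repair. Cell lines with defective mismatch repair, which accumulate errors in short DNA repeats (microsatellite instability), are known to depend on it, and loss of WRN in such lines leads to DNA breaks and impaired mitosis. DNA breaks activate p53, a transcription factor whose targets include the cell cycle inhibitor CDKN1A (p21), its own ubiquitin ligase MDM2, death receptors and repair enzymes. When p21 is induced, the DREAM repressor complex is known to silence cell cycle genes, many of them through a promoter element called the cell cycle homology region (CHR).

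The SW48 libraries held 30752291 (sgCh2-2 A), 18301780 (sgCh2-2 B), 16494023 (sgWRN3 A) and 16376019 (sgWRN3 B) counts, and the range over all 12 libraries was 15423162 to 32581625. Levels are given in CPM, counts scaled to library size after TMM normalisation. The intestinal transcription factors CDX2 (68 to 103 CPM) and HNF4A (60.9 to 64.1 CPM) were present in all 4 libraries, whereas the differentiation markers CDX1, MUC2, FABP1 and GUCY2C had 0 counts, and KRT20 had 10 counts over the 4 libraries. Of 14 fibroblast and 10 leukocyte or endothelial markers, 1 and 2 were abundant enough to test; their summed levels were 2.35 to 3.74 and 10.6 to 11.3 CPM per library. Among the latter, PTPRC lay between 2.27 and 3.46 CPM and CD68 between 7.31 and 8.25 CPM.

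In SW48, A and B libraries differed alike in the control and the sgWRN3 group: over 10282 genes, the log2 difference between B and A had a Pearson correlation of 0.73 between the groups, a description across genes. Genes were therefore compared within the lettered pairs, in 1 fit with the 4 OVK18 libraries of the same guides. Of 12361 genes tested, 129 differed between sgWRN3 and sgCh2-2 (1.04%; edgeR's quasi-likelihood test, Benjamini-Hochberg adjusted p under 0.05 over all genes tested). Of these, 66 rose (0.534%) and 63 fell (0.51%). All 129 had the same sign in pair A and in pair B. A test within pairs favours genes whose pairs agree, so this is not separate support. Over all genes tested, 28.1% were higher and 27.5% lower in both pairs. Without the letters as a block, 0 genes passed edgeR's test, with 249 at an unadjusted p under 0.05 against 1625 with the block, so every count of genes against sgCh2-2 below rests on the pairing of letters. The count was 58 from the 4 SW48 libraries alone, 34 with DESeq2 (which gave no adjusted p for 6950 genes, 31 of the 129 among them), 12 when any 1 of the 4 OVK18 libraries was left out and 225 to 1400 when 1 of the 4 SW48 libraries was. With RLE size factors, 71 genes rose and 42 fell. Changes were small: 116 of the 129 were under 1.5-fold, 13 reached 1.5-fold and 5 reached 2-fold.

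**Figure D1:**
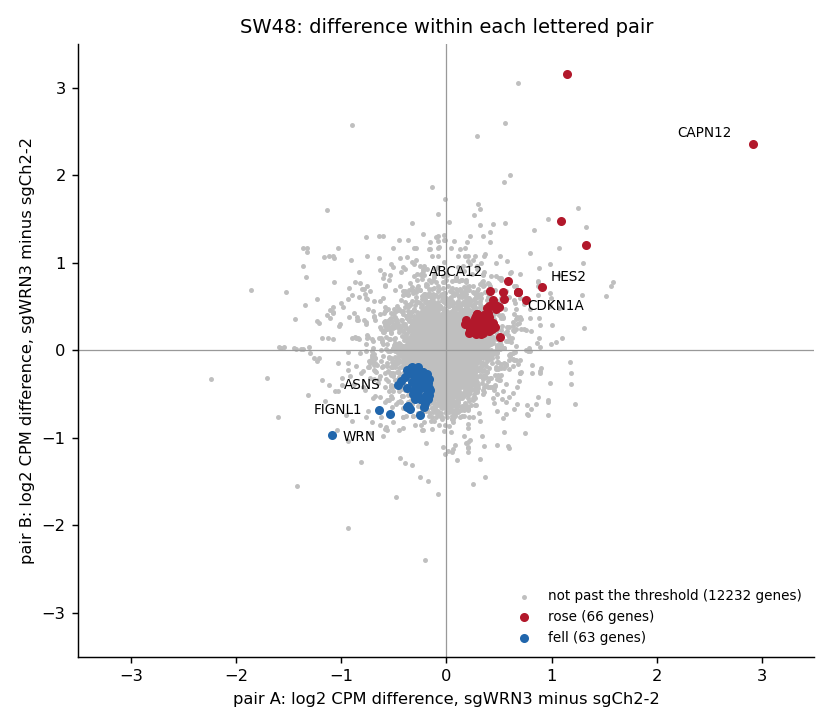
Log2 difference in CPM between sgWRN3 and sgCh2-2 in pair A (horizontal axis) and pair B (vertical axis) for the 12361 genes tested, with a prior count of 2. Red points (66 genes) rose and blue points (63 genes) fell, and grey points did not pass the threshold. All red and blue points have the same sign in both pairs, which a test within pairs favours.

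The targeted gene was examined first. WRN stood at 90.5 and 112 CPM in the control libraries A and B and at 42.5 and 56.9 CPM in the sgWRN3 libraries. Both sgWRN3 libraries lay below both controls. Its log2 fold change was -1.03 with an SE of 0.068 (edgeR's adjusted p = 4.486e-06), the largest fall of any gene past the threshold. The change within pair A was -1.09 and within pair B -0.97. The position of the cut and the level of the protein are not analysed here. Of the other 4 RecQ helicases, none passed. RECQL was at 61.2 and 73.2 CPM in controls and at 54.9 and 60.8 CPM with sgWRN3, a log2 difference of -0.21 (adjusted p = 0.12). BLM was at 51.0 and 51.7 CPM against 41.8 and 53.6 CPM. Of 6 mismatch repair genes tested, 0 passed edgeR's test, with a median log2 difference of -0.054.

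Some genes activated by p53 rose. Over 3 lists, 18 of 56 tested targets rose and 0 fell, against 0.534% and 0.51% of all genes tested. Against 6221 of the 12361 genes tested, 48 of the 56 targets had a log2 fold change above 0. Their median log2 fold change was 0.20, against 0.001 for all genes tested.

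Of 20 targets that act in cell cycle arrest or feed back on p53, 8 rose. CDKN1A, the inhibitor p21 of cyclin-dependent kinases, was at 409 and 326 CPM in controls and 657 and 519 CPM with sgWRN3. The groups did not overlap, and A was above B in each. CDKN1A rose with a log2 fold change of 0.68 and an SE of 0.047 (adjusted p = 4.486e-06). MDM2, a ligase that marks p53 for degradation, was at 468 and 481 CPM in controls and 644 and 689 CPM with sgWRN3. It rose by 0.49 (SE 0.047, adjusted p = 0.000182), with no overlap of the groups. GDF15, a secreted stress cytokine, stood at 36.1 and 28.5 CPM against 61.2 and 42.6 CPM, and rose by 0.68. PLK2, a polo-like kinase, was at 137 and 136 CPM against 192 and 193 CPM, a log2 fold change of 0.50. BTG2, an antiproliferative factor (96.3 and 89.1 against 134 and 124 CPM), rose by 0.47. The other members that rose were TP53INP1 (0.38), the p53-dampening phosphatase PPM1D (0.34) and the Akt inhibitor PHLDA3 (0.39), whose groups overlapped. PLK3 (0.48, adjusted p = 0.099), SESN1 (0.19), GADD45A (0.16) and CCNG1 (0.11) did not pass.

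Of 15 tested p53 targets that act in cell death, 4 rose. FAS, the death receptor, was at 55.7 and 63.2 CPM in controls and 73.1 and 75.5 CPM with sgWRN3 (log2 fold change 0.33 with SE 0.065, adjusted p = 0.031). TNFRSF10D, a decoy receptor for the death ligand TRAIL, was at 64.3 and 60.9 CPM against 80.7 and 76.9 CPM and rose by 0.33. In both genes every sgWRN3 library lay above every control. FDXR, a mitochondrial electron carrier (0.32, overlapping groups), and DRAM1, a lysosomal protein of autophagy (0.28), also rose. The genes of the BCL2 family that p53 induces did not pass. BBC3 (PUMA) had a log2 difference of 0.38 (adjusted p = 0.080), BAX of 0.21 (adjusted p = 0.14) and PMAIP1 (NOXA) of -0.27 (adjusted p = 0.37). TNFRSF10B, a signalling TRAIL receptor, was at 204 and 201 CPM against 235 and 222 CPM (0.17, adjusted p = 0.12). Of 20 further genes of the BCL2 family and caspases, 0 passed, with a median log2 difference of -0.005.

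Of 21 p53 targets of repair and metabolism, 6 rose. POLH, the translesion polymerase eta, was at 122 and 118 CPM in controls and 147 and 150 CPM with sgWRN3, with no overlap (log2 fold change 0.30 with SE 0.051, adjusted p = 0.013). DDB2 (62.1 and 57.4 against 75.6 and 75.4 CPM, 0.34) and XPC (135 and 123 against 154 and 156 CPM, 0.27), which recognise damaged bases for nucleotide excision repair, rose as well. The others were the ceramidase ACER2 (0.50), CYFIP2 (0.26) and the semaphorin receptor PLXNB2 (0.22), whose groups overlapped. RRM2B, the p53-inducible ribonucleotide reductase subunit, had a log2 difference of 0.11 (adjusted p = 0.60). The number of the 56 targets that rose was 17 to 27 when 1 SW48 library was left out (2 fell without either A library), 11 from the 4 SW48 libraries alone, 7 with DESeq2 (4 of the 18 had no adjusted p there), 5 when any 1 OVK18 library was left out and 0 without the block.

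**Figure D2:**
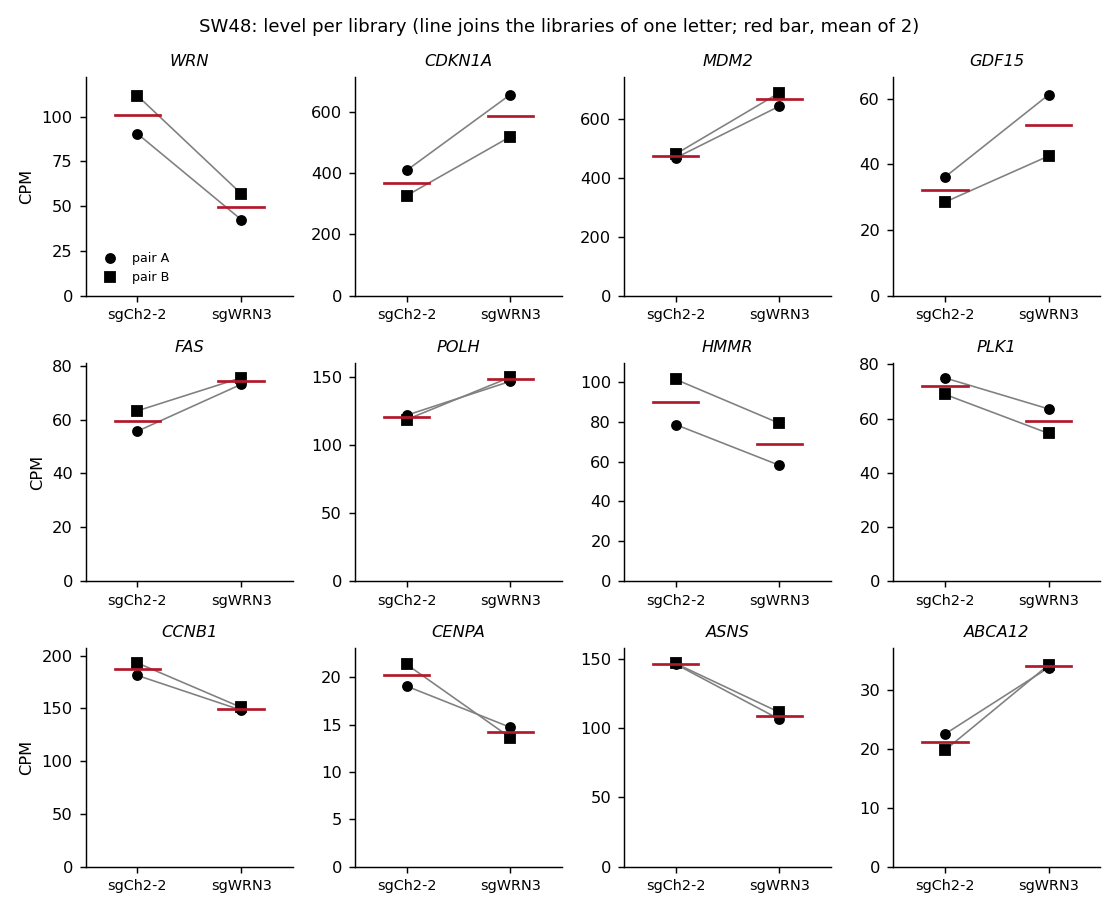
CPM of 12 genes in the 4 SW48 libraries, with a line from control to sgWRN3 within each letter (circles A, squares B) and the mean of 2 libraries as a red bar. Each line falls for WRN, HMMR, PLK1, CCNB1, CENPA and ASNS and rises for CDKN1A, MDM2, GDF15, FAS, POLH and ABCA12.

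Genes of mitosis fell. Of 59 mitotic genes, all of them tested, 23 fell and 0 rose, against 0.51% and 0.534% of all genes tested. All 59 had a log2 fold change below 0, against 6140 of the 12361 genes tested. In both pairs 57 were lower, against 27.5% of all genes tested. The median was -0.24, and the members that fell ranged from -0.23 to -0.50. In 35 of the 59 both sgWRN3 libraries lay below both controls, against 9.58% of all genes tested. In RNA from whole cultures, fewer dividing cells and less of these transcripts per cell cannot be told apart.

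Promoters are shown for 6 mitotic genes that fell, each with a CHR in the 100 bases, and a CCAAT box in the 150 bases, before the start site. These are the letters that cell cycle promoters are known to share. Filters on promoter length and chromosome were also applied, so other genes that meet this rule may be absent. The sequences are the 150 bases before the start in RefSeq (GRCh38.p14), written 5′ to 3′ toward the gene, with the CHR (TTTGAA or TTCGAA) and CCAAT, on either strand, in capitals.
HMMR (chr5:163460482-163460631, plus strand): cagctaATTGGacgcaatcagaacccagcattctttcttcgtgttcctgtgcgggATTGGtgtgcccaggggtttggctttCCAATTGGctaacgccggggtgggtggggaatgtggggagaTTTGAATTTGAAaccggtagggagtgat
DEPDC1 (chr1:68497083-68497232, minus strand): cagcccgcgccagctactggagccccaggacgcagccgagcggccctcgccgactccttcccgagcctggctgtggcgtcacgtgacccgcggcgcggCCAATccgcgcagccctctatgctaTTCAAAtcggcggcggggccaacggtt
CDCA8 (chr1:37692366-37692515, plus strand): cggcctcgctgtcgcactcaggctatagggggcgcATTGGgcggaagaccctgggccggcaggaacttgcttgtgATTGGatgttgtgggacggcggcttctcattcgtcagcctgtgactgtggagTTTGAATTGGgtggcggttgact
PLK1 (chr16:23678739-23678888, plus strand): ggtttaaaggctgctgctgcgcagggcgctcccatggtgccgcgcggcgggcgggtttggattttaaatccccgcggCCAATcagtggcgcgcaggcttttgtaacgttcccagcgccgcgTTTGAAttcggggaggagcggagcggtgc
CENPA (chr2:26785906-26786055, plus strand): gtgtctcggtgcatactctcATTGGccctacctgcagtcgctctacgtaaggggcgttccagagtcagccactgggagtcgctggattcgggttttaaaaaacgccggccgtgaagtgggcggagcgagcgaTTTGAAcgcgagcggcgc
CDC20 (chr1:43358831-43358980, plus strand): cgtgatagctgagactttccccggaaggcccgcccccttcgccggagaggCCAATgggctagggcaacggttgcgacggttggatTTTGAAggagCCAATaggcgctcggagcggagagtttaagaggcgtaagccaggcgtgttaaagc
The CHR of HMMR, DEPDC1, CDCA8, PLK1 and CENPA began 18 to 29 bases before the start, and that of CDC20 began 65 bases before it. HMMR held 2 adjoining CHR copies, and 2 of its CCAAT matches overlap each other. In windows from 250 bases before to 50 after the start, RefSeq promoters were matched by symbol for 17 of the 23 mitotic genes that fell and for 9927 of the genes tested. A CHR was present in 13 of the 17 (76.5%), in 69.4% of the 49 mitotic genes with a promoter and in 11.7% of all genes tested. A CCAAT was present in 16 of the 17 (94.1%), in 71.4% of the 49 mitotic genes and in 36.0% of all genes tested. Both were present in 70.6%, 57.1% and 4.82% of these sets. Among the genes that rose, 8 of 51 (15.7%) held a CHR. A match is a description of the letters, not of binding.

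Among regulators of mitotic entry, CCNB1, the mitotic cyclin, stood at 181 and 193 CPM in controls and 148 and 151 CPM with sgWRN3. The groups did not overlap, and CCNB1 fell by 0.32 in log2 terms, with an SE of 0.052 (adjusted p = 0.010). CCNA2, the cyclin of S and G2 phase, was at 105 and 142 CPM against 86.3 and 104 CPM and fell by 0.37. The kinases PLK1 (75.1 and 69.0 against 63.6 and 54.6 CPM, -0.29), AURKA (-0.28), NEK2 (-0.33), BUB1 (-0.24) and TTK (-0.28, overlapping groups) fell too. FOXM1, a transcription factor of mitotic genes, was at 127 and 114 CPM against 108 and 95.5 CPM and fell by 0.24. CDC20, an activator of the anaphase-promoting complex, fell by 0.26, and MAD2L1, a spindle checkpoint protein, by 0.40.

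Among structural genes, CENPA, the centromeric histone, was at 19.1 and 21.4 CPM in controls and 14.7 and 13.6 CPM with sgWRN3. It had the lowest log2 fold change of the list, -0.50 (SE 0.11, adjusted p = 0.049). HMMR, a spindle-associated protein, was at 78.5 and 101 CPM against 58.1 and 79.2 CPM and fell by 0.39 (SE 0.059, adjusted p = 0.007). Its groups overlapped, since each B library stood above its A library. The same held for DEPDC1 (74.5 and 104 against 59.3 and 80.9 CPM, -0.35). The chromosomal passenger proteins CDCA8 (-0.35) and BIRC5 (-0.25) and the kinesins KIF14 (-0.29) and KIF20A (-0.30) fell. So did the condensin subunit NCAPG (-0.27) and the spindle proteins ASPM (-0.26) and DLGAP5 (-0.30). The groups of KIF14, NCAPG and ASPM overlapped. The proliferation marker MKI67 had a log2 difference of -0.24 and missed the threshold (adjusted p = 0.053), and TOP2A one of -0.15 (adjusted p = 0.18). The number of mitotic genes that passed was 46 without a filter on low counts, 7 from the 4 SW48 libraries alone, 3 with DESeq2 (1 of the 23 had no adjusted p there), and 0 when any 1 OVK18 library was left out or without the block. Their median stayed between -0.29 and -0.23 over all 21 alternatives.

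Of 52 genes of S phase and DNA replication, 3 fell and 0 rose, against 0.51% and 0.534% of all genes tested. Values were below 0 for 51 of them, against 6140 of the 12361 genes tested, and the median was -0.15. CCNE2, a cyclin of the G1 to S transition, was at 40.5 and 52.1 CPM in controls and 31.2 and 38.8 CPM with sgWRN3, without overlap, and fell by 0.40. RRM2, the ribonucleotide reductase subunit of S phase, fell by 0.23 (241 and 262 against 207 and 220 CPM) and the replicative helicase subunit MCM7 by 0.25 (281 and 259 against 250 and 206 CPM). The number of S phase genes that fell was 17 without either SW48 A library, 7 without either SW48 B library, 20 without a filter on low counts, 1 from the 4 SW48 libraries alone, and 0 with DESeq2, without any 1 OVK18 library or without the block. Of 47 genes of homologous recombination, the Fanconi pathway and checkpoints, 1 fell. That gene, FIGNL1, an ATPase of recombination, was at 12.4 and 14.2 CPM in controls and 7.89 and 8.80 CPM with sgWRN3, a log2 fold change of -0.67 (SE 0.11, adjusted p = 0.010), and the median of the list was -0.12.

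**Figure D3:**
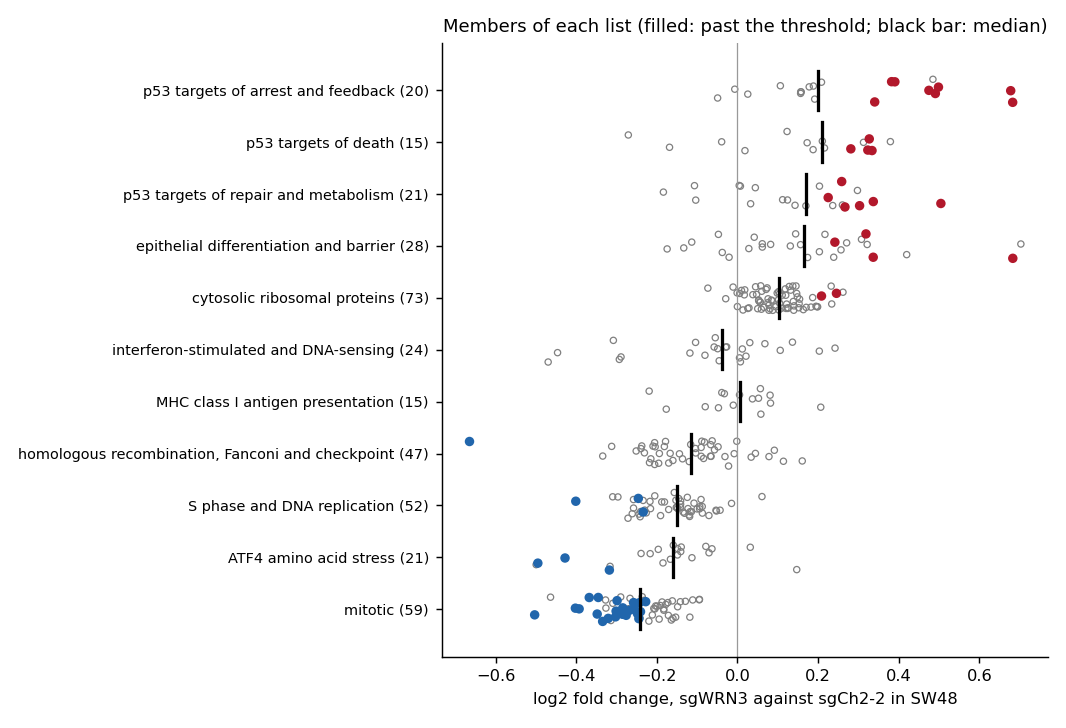
Log2 fold change of every tested member of 11 gene lists, with the number of members in brackets; filled points passed the threshold and black bars are medians. The mitotic list lies wholly below 0, with 23 filled points, and the 3 p53 target lists hold 18 filled points, all above 0.

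Of 21 targets of ATF4, the transcription factor of the amino acid stress response, 3 fell and 0 rose, against 0.51% and 0.534% of all genes tested, with a median of -0.16. ASNS, asparagine synthetase, stood at 146 and 147 CPM in controls and 106 and 111 CPM with sgWRN3. Both sgWRN3 libraries lay below both controls, and ASNS fell by 0.43 (SE 0.051, adjusted p = 0.00136). SLC7A11, the cystine transporter, was at 54.3 and 67.1 CPM against 42.3 and 43.2 CPM and fell by 0.50. PHGDH, the first enzyme of serine synthesis, was at 49.0 and 41.4 CPM against 40.8 and 31.7 CPM and fell by 0.32. The number of ATF4 targets that fell was 10 without SW48 sgCh2-2 replicate A, 9 without SW48 sgWRN3 replicate A, 6 without a filter on low counts, 1 (ASNS) with DESeq2, where SLC7A11 had no adjusted p, 1 without any 1 OVK18 library (ASNS again), and 0 without the block. In other stress lists, 1 of 14 cytosolic heat shock genes fell (HSPA1B, -0.36, uncertain because HSPA1A is a near-identical copy), and 0 of 19 chaperone genes of the endoplasmic reticulum passed (median 0.026). Of 31 genes of cholesterol and fatty acid synthesis, 1 fell, the sterol sensor INSIG1 (64.6 and 98.9 against 57.3 and 67.4 CPM, -0.37, overlapping groups).

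Some genes of epithelial differentiation rose. Of 28 tested genes of differentiation and barrier, 4 rose and 0 fell, against 0.534% and 0.51% of all genes tested, with a median of 0.17. ABCA12, a lipid transporter of the skin barrier, was at 22.5 and 19.7 CPM in controls and 33.8 and 34.3 CPM with sgWRN3, without overlap (log2 fold change 0.68, SE 0.088, adjusted p = 0.0039). DSP, the desmosomal protein desmoplakin, was at 1092 and 1104 CPM against 1317 and 1422 CPM and rose by 0.32. The kallikrein proteases KLK7 (568 and 600 against 699 and 778 CPM, 0.34) and KLK10 (0.24) rose as well. Among these 4 genes, only DSP and KLK7 also passed with DESeq2. Only ABCA12 passed with each of the OVK18 libraries left out in turn. The 13 other listed genes, among them IVL, LOR and SPRR2A, which mark cornified epithelium, were too low to test. Of 12 intestinal markers tested, 0 passed, and CEACAM5 was at 57.0 and 49.9 CPM against 63.4 and 60.8 CPM (0.22, adjusted p = 0.18).

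Beyond the lists, HES2, a basic helix-loop-helix repressor, had the highest log2 fold change among genes above 2 CPM. It was at 8.64 and 8.28 CPM in controls and 16.3 and 13.8 CPM with sgWRN3, and rose by 0.84 (SE 0.11, adjusted p = 0.00417). PVRL4, the adhesion molecule nectin-4, was at 14.4 and 13.6 CPM against 23.0 and 21.8 CPM and rose by 0.68. IFITM10 (0.60), MAP1B, a microtubule-associated protein (0.56), and FAM212B (0.50) followed, with groups that did not overlap. FLG-AS1 rose by 0.57, but reads of this antisense gene and its partner cannot be told apart where the strand setting is not given. Among the lowest genes were TEX30 (-0.64), GPR137C (-0.52) and IMPA1, an inositol monophosphatase (-0.50, overlapping groups). Also among them were CEP44, a centrosomal protein (-0.43, overlapping groups), SVIP (-0.43) and DSN1, a kinetochore subunit (-0.41). Over all genes, 70 of the 129 were on no list. Of the 30 that fell among them, examples picked after their values were seen are the lamin gene LMNB1 (-0.28), TMPO (-0.35), the cohesin acetyltransferase ESCO2 (-0.34), HMGB2 (-0.28), CEP55 (-0.28), CKS2 (-0.27) and the deoxyuridine triphosphatase DUT (-0.40). NEFM, THRIL, LOC100129931 and CAPN12 also rose but averaged under 2 CPM; CAPN12 was at 0 and 0.16 CPM in controls and 0.60 and 1.21 CPM with sgWRN3.

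Other lists gave 2 or fewer calls, where 0.534% of all genes tested rose and 0.51% fell. Of 73 cytosolic ribosomal protein genes, 2 rose (RPS15A, 0.25, and RPL27, 0.21). Values were above 0 for 68 of them, with a median of 0.10, against 6221 of the 12361 genes tested, with a median of 0.001. FOSL1, an AP-1 subunit, rose by 0.34 (1 of 27 immediate-early and MAPK feedback genes), and the surface receptor CD44 by 0.26 (1 of 16 Wnt targets). No member passed among 24 interferon-stimulated and DNA-sensing genes (median -0.037), 15 genes of MHC class I presentation (0.005), 12 NF-kB targets (0.12), 28 genes of glycolysis and hypoxia (0.001), 24 of ribosome biogenesis (0.026), 11 histones (0.11) and 22 of growth arrest and TGF-beta signalling (-0.072). Over the 11 lists without a call by edgeR, 27 of 193 genes had an unadjusted p under 0.05 (14.0%), against 13.1% of all genes tested, and DESeq2 called 0. In the list of growth arrest CDKN1B, the inhibitor p27, stood at 44.9 and 54.7 CPM in controls and 39.3 and 39.9 CPM with sgWRN3 (log2 difference -0.32, adjusted p = 0.053). IFNB1, CXCL10, CCL5, TNF and IL6 had 0 counts in all 4 SW48 libraries.

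The same guide was compared in OVK18, whose control libraries are separate. In OVK18, 6 of 12361 genes passed (0.0485%), 4 higher (0.0324%) and 2 lower (0.0162%). WRN was at 33.4 and 41.7 CPM in controls and 22.9 and 23.9 CPM with sgWRN3, a log2 fold change of -0.68 (SE 0.076, adjusted p = 0.00242), and was the 1 gene past the threshold in both lines. The difference in WRN between the lines, -0.35 (SE 0.10), did not pass (adjusted p = 0.57). Of the 66 genes that rose in SW48, 48 had the same sign in OVK18, and the 66 had a median log2 difference there of 0.047. Of the 63 that fell, 54 had the same sign, and the 63 had a median of -0.076. The share of all genes tested with the same sign in both lines was not counted, so these counts have no background beside them. The mitotic list had a median of -0.10 in OVK18 and the p53 targets one of 0.034, against -0.009 for all genes tested.

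A test of the difference itself passed for 5 of 12361 genes (0.0404%), 3 more positive in SW48 (0.0243%) and 2 more negative (0.0162%). Among them were 2 p53 targets that rose in SW48. CDKN1A was at 187 and 182 CPM in OVK18 controls and 194 and 179 CPM with sgWRN3, an OVK18 log2 difference of 0.02. The SW48 change exceeded it by 0.66 (SE 0.067, adjusted p = 0.00125). MDM2 was at 767 and 873 CPM against 754 and 893 CPM in OVK18, a log2 difference of 0.005, and the lines differed by 0.49 (SE 0.065, adjusted p = 0.0155). ASNS stood at 189 and 172 CPM against 191 and 173 CPM in OVK18 (log2 difference 0.01), and the lines differed by -0.44 (SE 0.070, adjusted p = 0.047). The other two genes moved in OVK18: RND3 and CRELD2 passed there, and their SW48 log2 differences were 0.13 (adjusted p = 0.51) and -0.06 (adjusted p = 0.78). No mitotic gene passed the test of the difference. These 5 calls fell to 0 without the block or without any 1 OVK18 library, while CDKN1A and MDM2 passed with DESeq2 and limma-voom.

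**Figure D4:**
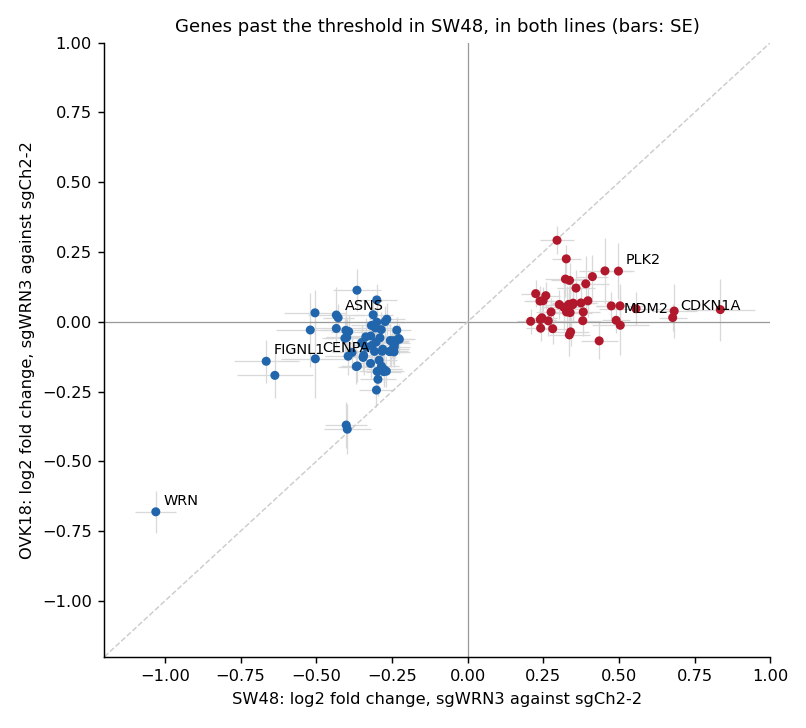
Log2 fold change under sgWRN3 in SW48 (horizontal axis) and OVK18 (vertical axis) for the 105 of 129 genes with a mean of at least 5 CPM in OVK18, with standard errors as grey bars and equality as a dashed line. All 105 points are larger in size in SW48, where they were chosen, and CDKN1A and MDM2 lie near 0 in OVK18.

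The guides against WRN were compared with each other in SW48 over 12504 genes, in a fit of all 12 libraries without the block, because the letters of the sgWRN2 libraries ran opposite to those of sgWRN3 (correlation of B minus A differences -0.29 over 10282 genes). WRN was at 42.5 and 56.9 CPM with sgWRN3 and 36.2 and 33.4 CPM with sgWRN2. The log2 difference of 0.51 (SE 0.16) did not pass (adjusted p = 0.25). Between the guides 150 genes differed (1.2%), 115 of them higher with sgWRN3 (0.92%) and 35 lower (0.28%).

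Mitotic genes were higher with sgWRN3 than with sgWRN2 in 35 of 59 cases, and S phase genes in 22 of 52, against 0.92% of all genes tested. These counts rest on both sgWRN2 libraries: without sgWRN2 replicate A, 0 mitotic and 0 S phase genes passed, and without sgWRN2 replicate B, 2 and 0. Without sgWRN3 replicate A they were 27 and 6, and without sgWRN3 replicate B 13 and 0. With a replicate block per line 17 and 5 passed, and from the 6 SW48 libraries alone 14 and 2. Counts were 33 and 19 with RLE size factors, 33 and 21 with limma-voom and 47 and 33 with DESeq2. A filter at a mean of at least 5 CPM gave 35 and 24. With the sgWRN2 letters crossed in the block, chosen after seeing the data, they were 56 and 45. KIF20A was at 55.2 and 55.3 CPM with sgCh2-2, at 46.2 and 43.2 CPM with sgWRN3 and at 22.2 and 22.4 CPM with sgWRN2. The guides differed by 1.0 in log2 CPM, with an SE of 0.11 (adjusted p = 0.00402), with no overlap. CDC20, at 89.7 and 76.4, then 74.7 and 64.4, then 36.0 and 38.5 CPM in the same order, differed by 0.90 between the guides, and ARHGEF39 by 1.05 and TMEM133 by 0.94. CDKN1A ran the other way, at 409 and 326 CPM with sgCh2-2, 657 and 519 CPM with sgWRN3 and 922 and 988 CPM with sgWRN2. It was lower with sgWRN3 than with sgWRN2 by a log2 difference of -0.70 (adjusted p = 0.036). ABCA12 (-0.89) and TNFRSF10D (-0.59) were also lower with sgWRN3. MDM2, at 644 and 689 CPM with sgWRN3 and 1057 and 840 CPM with sgWRN2, had a log2 difference of -0.51 that did not pass. For KIF20A, CDC20, CDKN1A, ABCA12 and TNFRSF10D the sgWRN3 libraries lay between those of the control and those of sgWRN2. These genes passed the threshold in both comparisons, which favours this order, and its share among other genes was not counted. Other genes did not follow it. SLC7A11 was at 54.3 and 67.1 CPM with sgCh2-2, 42.3 and 43.2 CPM with sgWRN3 and 54.3 and 47.3 CPM with sgWRN2. LINC00294 was at 52.0 and 56.6, then 68.2 and 70.8, then 62.5 and 60.3 CPM. HSPA1B did not either, at 240 and 243 CPM with sgCh2-2, 199 and 176 CPM with sgWRN3 and 306 and 271 CPM with sgWRN2. Its log2 difference between the guides, -0.62, did not pass (edgeR's adjusted p = 0.084). The comparisons of each guide with sgCh2-2 share the control libraries.

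NEFM, a neurofilament subunit, stood at 1.02 and 0.76 CPM with sgCh2-2, 2.69 and 1.87 CPM with sgWRN3 and 33.6 and 20.8 CPM with sgWRN2, and was lower with sgWRN3 than with sgWRN2 by a log2 difference of -3.57. BEX4 was at 0.22 and 0.16, then 0.60 and 0.54, then 6.96 and 4.50 CPM (-3.32). HOMER2, a synaptic scaffold protein, had a log2 difference from control of -0.09 that did not pass (SE 0.24, adjusted p = 0.92) and was lower with sgWRN3 than with sgWRN2 by -1.53. The count of genes that differed between the guides was 3 without SW48 sgWRN2 replicate A, 17 without sgWRN2 replicate B, 81 without sgWRN3 replicate A and 25 without sgWRN3 replicate B. In these fits the remaining library of a group is assumed to vary like the other groups.

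**Figure D5:**
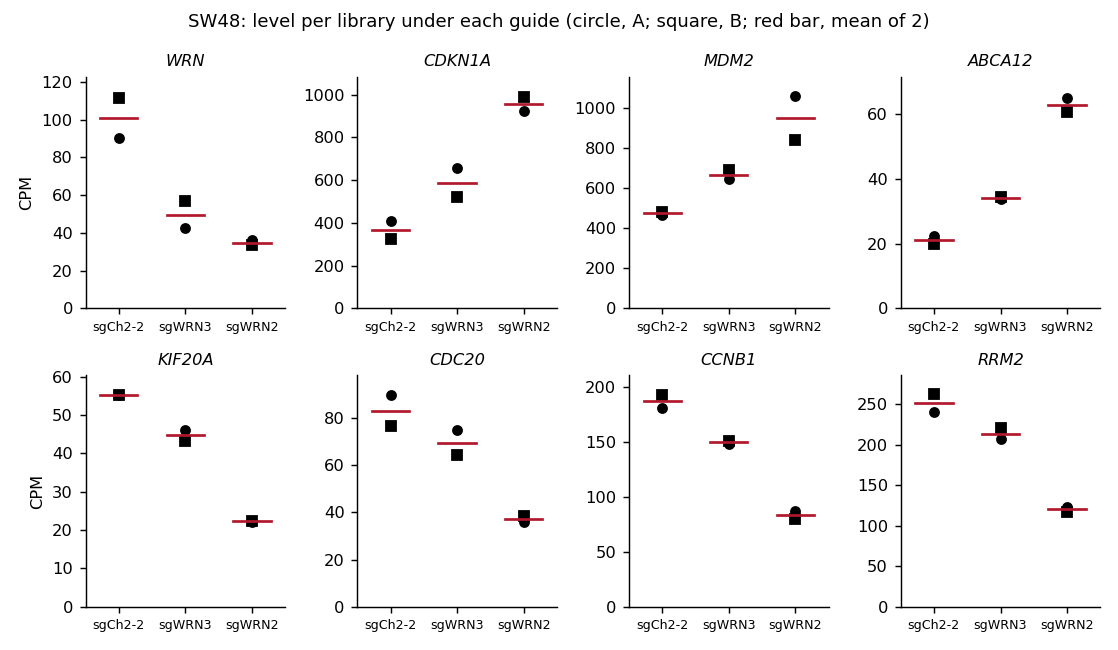
CPM of 8 genes in the SW48 libraries under sgCh2-2, sgWRN3 and sgWRN2 (circle A, square B, red bar the mean of 2). KIF20A, CDC20, CCNB1 and RRM2 step down from control to sgWRN3 to sgWRN2, while CDKN1A, MDM2 and ABCA12 step up in that order.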

How the data were processed

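Messenger RNA was measured in 12 libraries, 6 groups of 2. Raw gene counts were deposited by the authors, for which the submitters' processing notes name bcl2fastq 2.18, STAR 2.5 and build hg19; the annotation and strand setting are not given in the sources used here. A second table deposited by the authors was read as FPKM because counts divided by its values grow with transcript length (Spearman's rho 0.79 over 10116 genes); the same notes name Cufflinks 2.2.1. The count table holds 25343 genes and 92 spike-in rows, which are all at 0 and were left out. Coordinates are printed only for the RefSeq promoters, since the count table gives none and its build differs.

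The tests ran in edgeR 4.0.16 (R 4.3.3), with TMM normalisation, filterByExpr over the 4 SW48 libraries, and a robust quasi-likelihood fit over 8 libraries (sgCh2-2 and sgWRN3 in both lines) with 1 coefficient per group and an A or B block per line, which leaves 2 residual degrees of freedom. The contrast between lines is from this fit. sgWRN3 against sgWRN2 used all 12 libraries without the block. The labels give only the letters; the pairing rests on the shared direction of the B minus A differences, which also correlated across the lines (0.55 to 0.60) and between the OVK18 groups (0.49). Replicates differed beyond counting error in every group. The steps were also run on counts simulated from the fitted model with the letter block kept, so that run cannot test the block.

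The comparison, the block and all 27 gene lists were chosen with earlier results of these data known. Genes are named by a rule: WRN, CDKN1A and MDM2; the 12 highest and 12 lowest log2 fold changes past the threshold with at least 2 CPM and 1 sign in both pairs; for each list, at most 4 members with the lowest p; and 4 per direction for the other contrasts. Members beyond these are examples or were chosen after their values were seen. Alternatives were other scalings and filters, DESeq2 1.42.0, limma-voom (limma 3.58.1), limma on log2(FPKM + 1) and log2(FPKM + 0.1), other blocks and sets of libraries, and leaving out each library. Figures were drawn with matplotlib.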

Additional observations from a re-analysis of the deposited data

Results flagged for a closer look

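A test of the difference between the lines in the response to sgWRN3 passed for 5 genes (edgeR's quasi-likelihood test, Benjamini-Hochberg adjusted). The SW48 log2 fold change minus that in OVK18 was 0.66 for CDKN1A (adjusted p = 0.00125) and 0.49 for MDM2 (adjusted p = 0.0155), both of which rose in SW48. It was -0.44 for ASNS (adjusted p = 0.047), which fell in SW48. It was 2.11 for RND3 (adjusted p = 0.0155), whose OVK18 level was 1.62 and 2.08 CPM in controls and 0.36 and 0.57 CPM with sgWRN3. It was -0.62 for CRELD2 (adjusted p = 0.028), an endoplasmic reticulum stress gene that stood at 54.9 and 39.2 CPM in OVK18 controls and 84.6 and 55.3 CPM with sgWRN3. No single library was tested for standing apart, since each group holds 2.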

How the results depend on the processing

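All 129 genes kept their sign in those of the 21 alternatives to the comparison with sgCh2-2 that gave them a value. That number was 19 for HSPA1B, 20 for CAPN12, LOC100129931, NEFM and THRIL, and 21 for the others. All 129 had the same sign in both pairs to begin with, which all but fixes the sign, so this is not separate support. Past the threshold with each OVK18 library left out were 12 genes, among them WRN, CDKN1A, MDM2, GDF15, PLK2, BTG2 and ASNS; in these fits fewer degrees of freedom remain. The count of 129 genes became 0 without the replicate block in the same 8 libraries and 0 in all 12 libraries without it, 558 with no filter on low counts (17425 genes tested), 34 with DESeq2, 58 from the 4 SW48 libraries, and 1 and 2 from FPKM with pseudocounts 1 and 0.1 (1668 and 1523 at an unadjusted p under 0.05; 150 genes listed at 0 FPKM were left out; 0 of the 129 were among the calls). Leaving out a library gave 12 to 1400 genes; without a SW48 library the spread comes from OVK18 alone. Other scalings gave 113 to 159. The 5 differences between the lines became 0 without the replicate block, 34 with no filter, 3 with DESeq2, 2 with limma-voom, 3 with 1 block shared by both lines, 1 and 1 from FPKM (0 of the 5 among them), and 0 to 827 with a library left out. The 150 genes between the guides became 34 from the 6 SW48 libraries, 289 with DESeq2, 61 with a replicate block per line, 713 with the sgWRN2 letters crossed in the block (chosen after seeing the data), and 3 to 81 with a library left out. With 2 libraries a group, the spread is estimated jointly with OVK18, and genes under 2 CPM rest on few counts.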
